A study of Bos taurus with 12 samples.

Results

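The AP-1 transcription factors considered here were 8 genes, FOS, FOSB, FOSL1, FOSL2, JUN, JUNB, JUND and ATF3, measured by 17 of the 43653 probes of a bovine oligonucleotide array, and were 8 of the 12787 genes that could be given a symbol. The members were taken by name from the FOS and JUN families and ATF3. The group was chosen by the change of FOS between the same samples, which had been seen to be the largest rise of all tested probes. The values of the members in the comparison below are therefore a description, and no test of them is given as evidence. Of the 8 genes, 6 had at least 1 probe that entered the fit across all probes, with 10 of their probes among the 19406 tested, while no probe of FOSL1 or FOSL2 did.

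AP-1 is a dimer of basic leucine zipper (bZIP) proteins. JUN proteins pair with each other or with FOS proteins, FOS proteins bind DNA only with a partner, and ATF3 can join JUN proteins or pair with itself. FOS, JUN, JUNB and ATF3 are immediate early genes, whose transcription starts within minutes of a signal through the MAP kinases without new protein synthesis and usually falls again soon after, while JUND is typically present all the time. In the mammary gland, AP-1 factors have been studied in growth, in involution after milking stops, and in the response of tissue to injury or stress.

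Mammary gland biopsies were taken from the rear udder of multiparous Holstein cows in midlactation, in a study of how underfeeding alters gene expression in the gland. CONT was sampled on day 0, when cows ate a lactation diet ad libitum, and REST on day 6 of a restriction that covered 50% of the net energy requirement for lactation. Each of 6 cows gave both biopsies, from alternate sides, and 50 ng of total RNA of each biopsy was labelled with Cy3 and put on 1 one-colour Agilent array, so that each period had 6 arrays. Cows are numbered 1 to 6. The labels name 6 cows where the series description counts 5, so results were recomputed without each cow. By the methods of the study, mastitis led to the exclusion of a Holstein cow, and the labels do not tell whether that animal is among these 6. Period and sampling day are the same thing in this design, and no cow was sampled after 6 days of full feeding, so that restriction cannot be told apart from the later day or from the earlier biopsy.

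Each slide carried 4 arrays, both biopsies of a pair of cows. Slide 1 held cows 1 and 2, slide 2 held cows 3 and 4, and slide 3 held cows 5 and 6. Slide 3 was dimmer, with a 75th percentile of 73.2 to 117 intensity units against 252 to 390.0 on the other slides, and the scanner software called 41.9 to 48.0% of its spots well above background, against 61.8 to 67.9%. REST arrays were brighter than CONT arrays at that percentile in all 6 cows, by 0.17 to 0.45 on the log2 scale, before it was subtracted. Results are therefore also given without slide 3 where that changes them. Signals below are log2 of the background-subtracted intensity minus that percentile of the array, so that 0 is the level of the percentile, and a change is REST minus CONT within a cow. Signals of different probes are not comparable with each other.

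All 7 luminal epithelial markers tested, among them the milk protein genes CSN3 and LALBA, were well above background on all 12 arrays, as the tissue label says. A biopsy is a mixture of cell types, so that more RNA per cell and more cells of a type cannot be told apart in any value here.

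FOS encodes the founding FOS protein, which needs a JUN partner. On its first probe (A_73_101038, transcript NM_182786) the CONT signal ran from a lowest value of -3.13 through a median of -2.76 to a highest of -1.42. In REST the same probe ran from -0.61 through -0.14 to 2.23. Every REST sample lay above every CONT sample, and cow 2 was highest in both periods. The mean went from -2.53 ± 0.62 to 0.23 ± 1.05 (SD, n = 6), a difference of 2.76 ± 0.47, or 6.78-fold on the linear scale, in which the CONT readings of cows 5 and 6 were not well above background. Over cows 1 to 4, measured in both periods, it was 2.91. By this difference the probe came first among all 19406 tested, which is how the gene came to be chosen. The change was 2.74 in cow 1, 3.65 in cow 2, 2.51 in cow 3, 2.74 in cow 4, 2.28 in cow 5 and 2.65 in cow 6.

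The FOS probe was dim before restriction. Its CONT intensity was between 11.5 and 114 units, it was well above background on 4 of the 6 CONT arrays, so that the changes of cows 5 and 6 start from a background reading, and on all 6 REST arrays, where it read 76.4 to 1824 units. With normexp background correction, which adds 50 units to every spot, the change was 1.40 after the percentile shift and 1.52 after quantile normalization, so that the direction held and the size did not. Within slides the mean change was 3.19, 2.62 and 2.47 for slides 1, 2 and 3, and without cow 2 it was 2.58.

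The other FOS probes disagreed on detection. The second (A_73_P049126) was well above background on 1 CONT array and 6 REST arrays, so that most of its CONT values are background readings and no size of change is given for it. The third (A_73_P101011) was well above background in REST of cow 2 only, and no change is given for it. Of the 10 tested probes of the members, these first 2 were those whose REST and CONT readings did not overlap, beside 2.25% of all tested probes with a value on every array, a count that the choice of FOS and the background readings make a description.

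FOSB encodes a FOS protein that also exists as a shorter form lacking the end that activates transcription, and which form each probe reads was not analysed. The first FOSB probe (A_73_101823, NM_001102248) was well above background on all 12 arrays. Its CONT signals had a lowest value of 3.93, a median of 4.88 and a highest of 5.74. Its REST signals had a lowest value of 3.67, a median of 4.38 and a highest of 5.46. The groups overlapped widely, since cows differed more from each other than the periods did, but REST was lower in each of the 6 cows. The change was -0.43 ± 0.19 (SD of the cows' changes, n = 6), a 1.35-fold lower signal, and it ranged from -0.71 in cow 1 to -0.26 in cow 2. The second probe (A_73_P356791) moved from 1.42 ± 0.21 to 1.01 ± 0.32, a change of -0.41 ± 0.26, again lower in all 6 cows. The third (A_73_P274581) was not well above background on any array, so that FOSB rests on the other two.

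FOSL1 and FOSL2 encode the FOS-related antigens, which lack the strong activation domain of FOS. Neither FOSL1 probe (NM_001205985) was well above background on any of the 12 arrays, and no level or change is given for it. FOSL2 was near the limit. Its first probe (A_73_P388061, XM_015473535) was well above background on 3 CONT and 5 REST arrays. Signals on it had a lowest value of -4.25, a median of -3.49 and a highest of -2.98 in CONT. In REST they had a lowest value of -4.69, a median of -2.53 and a highest of -2.04. The groups overlapped, and REST was above CONT in 4 cows and below it in cows 3 and 6, with a mean difference of 0.65 ± 0.85 that includes background readings. Another FOSL2 probe (A_73_111466) was well above background on 0 CONT arrays and on 3 REST arrays, those of cows 1, 2 and 4, and supports no fold, and the last (A_73_P082791) was not well above background on any array.

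**Figure D1:**
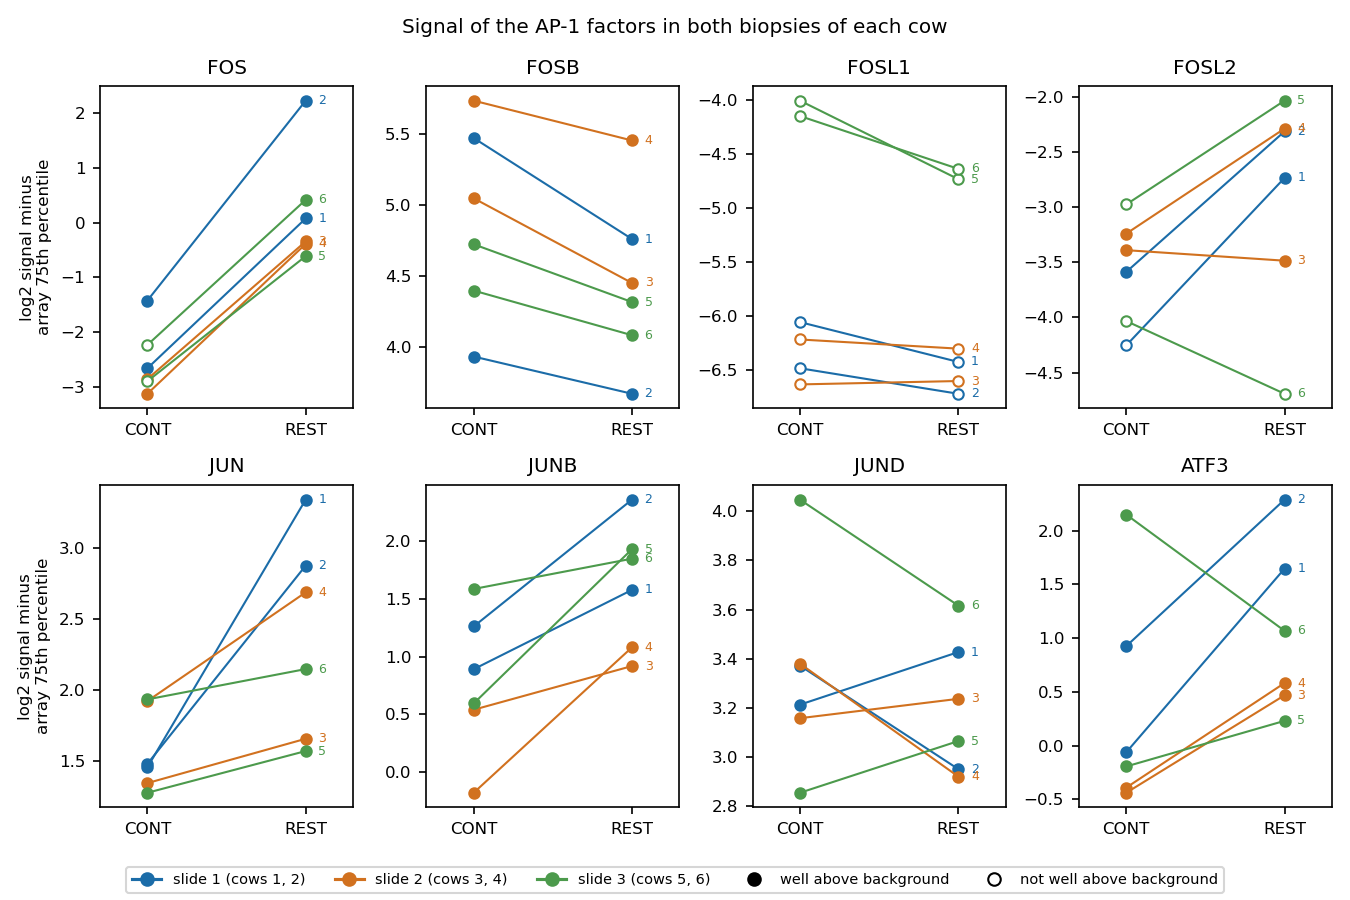
Normalized signal of the AP-1 factors, 1 panel per gene for its first probe. The vertical axis is log2 signal minus the array's 75th percentile, with a range of its own in each panel, and a line joins the CONT and REST biopsies of a cow. Colours give the slide, small numbers the cow, and open points samples not well above background. FOS was higher in REST in all 6 cows with no overlap between periods, FOSB was lower in all 6, and FOSL1 was not well above background in any sample.

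JUN encodes the protein that, paired with FOS, forms the classic AP-1 dimer. Its first probe (A_73_P317791, NM_001077827) was well above background on all 12 arrays. CONT signals lay close together, with a lowest value of 1.27, a median of 1.47 and a highest of 1.93. REST signals were spread more widely, with a lowest value of 1.57, a median of 2.42 and a highest of 3.34. The groups overlapped, although REST was above CONT in each of the 6 cows. The mean went from 1.57 ± 0.29 to 2.38 ± 0.71, a change of 0.81 ± 0.69 (n = 6), or 1.76-fold.

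The JUN change was uneven. It was 1.89 in cow 1 and 1.40 in cow 2, against 0.31, 0.77, 0.29 and 0.21 in cows 3 to 6. Slide means were 1.64, 0.54 and 0.25 for slides 1, 2 and 3. Cows and slides cannot be told apart here, because each slide held 2 cows. The other JUN probes (A_73_120007 and A_73_P101006) gave 0.79 ± 0.75 and 0.69 ± 0.89, with REST higher in 5 of 6 cows on both and lower in cow 6. In the fit across all probes, JUN lost its pass when cow 1 (0.60), cow 2 (0.70) or cow 4 (0.82) was left out, and without slide 3 its change was 1.09.

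JUNB encodes a JUN protein with weaker activating power than JUN, able to oppose it at some promoters. Its probe (A_73_120294, NM_001075656) was well above background on all 12 arrays. CONT signals had a lowest value of -0.18, a median of 0.74 and a highest of 1.59. REST signals had a lowest value of 0.92, a median of 1.71 and a highest of 2.36. The ranges overlapped, with cow 4 lowest in CONT and cow 2 highest in REST, and REST was higher in all 6 cows. The change was 0.84 ± 0.46 (n = 6), or 1.79-fold. It was 0.69 in cow 1, 1.10 in cow 2, 0.38 in cow 3, 1.26 in cow 4, 1.34 in cow 5 and 0.26 in cow 6, and the slide means of 0.89, 0.82 and 0.80 were close to each other, unlike those of JUN.

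JUND encodes the JUN protein made in most resting cells. Its probe (A_73_117519, NM_001103253) was well above background on all 12 arrays, with a lowest value of 2.85, a median of 3.29 and a highest of 4.05 in CONT. In REST these were 2.92, 3.15 and 3.62. The groups overlapped almost completely and the cows were split, with 3 higher and 3 lower in REST. The change was -0.13 ± 0.34 (n = 6), and its sign turned to 0.01 with normexp and the percentile shift.

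ATF3 encodes a stress-induced bZIP factor that mostly represses when paired with itself. Its probe (A_73_100833, NM_001046193) was well above background on all 12 arrays. CONT signals had a lowest value of -0.44, a median of -0.13 and a highest of 2.15. REST signals had a lowest value of 0.23, a median of 0.83 and a highest of 2.29. The highest CONT sample was cow 6, which lay above all REST samples but that of cow 2. The change was 0.72 ± 0.98 (n = 6), positive in 5 cows, from 0.42 in cow 5 to 1.71 in cow 1, and -1.08 in cow 6. Without cow 6 it was 1.07, and without slide 3 it was 1.24, and both passed the threshold in the fit across all probes, which the 6 cows together did not. The slide means were 1.54, 0.94 and -0.33.

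**Figure D2:**
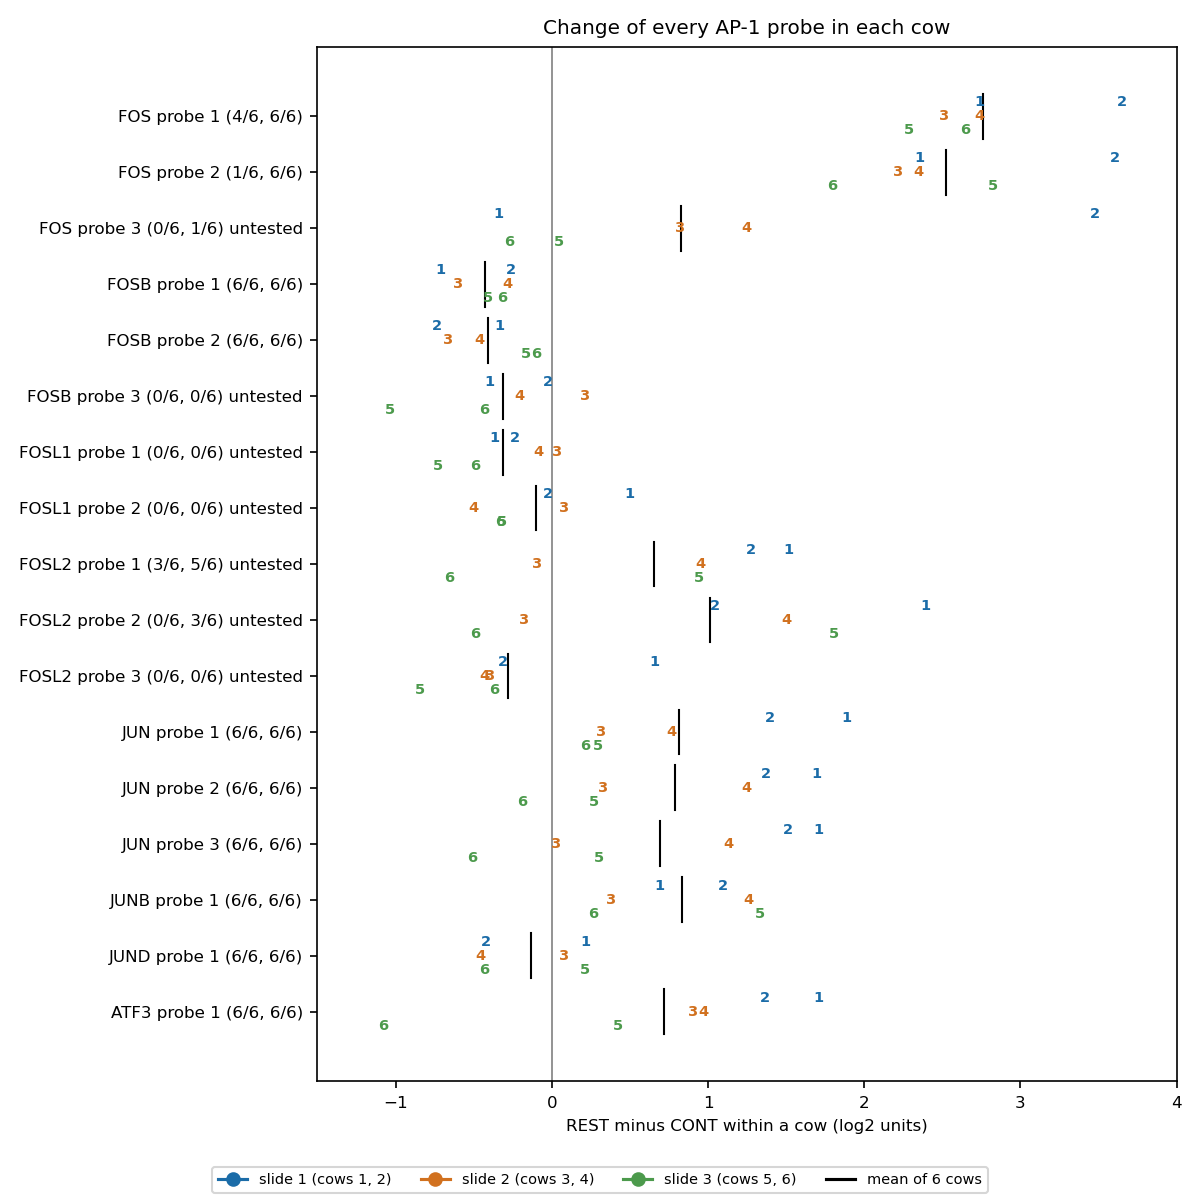
REST minus CONT (log2 units) on every AP-1 probe, with each number marking that cow's change, colours the slide and black bars the mean of the 6 cows. Brackets after a probe give the CONT and REST arrays on which it was well above background, of 6 each. Changes that rest on a sample not well above background are differences from a background reading, as for FOS probe 1 in cows 5 and 6 and for FOS probe 2 in 5 of 6 cows. JUN and ATF3 were largest in cow 1, and ATF3 was below 0 in cow 6.

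REST was compared with CONT across all tested probes with limma, with the cow as a block and a Benjamini-Hochberg adjusted p under 0.1 as the threshold. By any tested probe, 4 of the 6 members with a tested probe passed, FOS, JUN and JUNB higher and FOSB lower, beside 20.5% of all 7932 genes tested. By the probe of highest mean signal of each gene the count was also 4 of 6, beside 16.2% of all genes, 6.95% higher and 9.27% lower. Taken by probe, 7 of 10 passed, 5 higher and 2 lower, beside 16.0% of all, 7.22% higher and 8.78% lower, and 6 of 10 moved the same way in all 6 cows beside 17.6%. Both tested FOS probes are in these counts and met the filter only through REST. They were well above background on 4 and 1 of the 6 CONT arrays. These shares describe the choice of the genes and nothing is read from them. The median change of the 6 members was 0.76, against -0.01 over all tested genes. JUND and ATF3 did not pass. Under other ways of processing, JUNB passed in 17 of 20 fits, FOSB in 15 of 20, JUN in 13 of 20, ATF3 in 2 of 20 and JUND in 0 of 20. With cow as a random block in place of a fixed one, the first FOSB probe did not pass (limma adjusted p = 0.206).

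**Figure D3:**
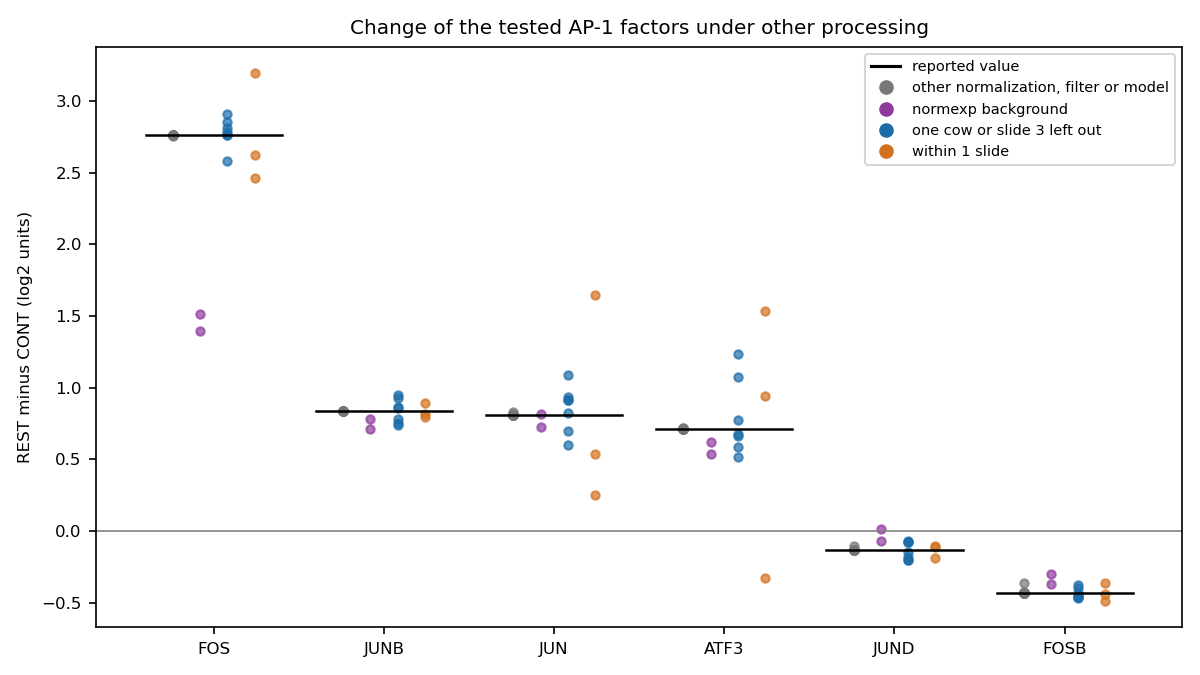
Change (log2 units, REST minus CONT) of the first probe of each tested AP-1 factor as reported (black line) and under other processing, with grey for other normalizations, filters and models, purple for normexp, blue for a cow or slide 3 left out and orange for single slides. FOS ranged from 1.40 with normexp to 3.19 on slide 1, while JUNB stayed between 0.71 and 0.95. ATF3 ranged from -0.33 on slide 3 to 1.54 on slide 1.

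The cows did not respond in one order. Among the members well above background on all 12 arrays, the changes of JUN, ATF3 and JUND were highest in cow 1, that of JUNB in cow 5 and that of FOSB in cow 2. JUN, JUNB and ATF3 had their lowest change in cow 6, FOSB in cow 1 and JUND in cow 4. Cow 6 lay on the dim slide, and the part of slide in this order was not tested.

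Levels of the 6 tested members were also correlated over the 6 cows within each period, a measure that does not use the difference between periods. With 15 pairs in each of 2 periods, 30 relations were computed, and 1 passed an adjusted p of 0.1. JUN and JUND went together in CONT, with Pearson's r = 0.82 (exact permutation p = 0.00139, adjusted 0.0417) and Spearman's rho = 1.0 (exact permutation p = 0.00278, adjusted 0.0833). Without the 2 cows farthest from the median of JUN, r was 0.92. In REST the same pair gave r = -0.01 (exact permutation p = 0.994) and rho = -0.03 (exact permutation p = 1.0), with r = -0.63 without the 2 farthest cows, and did not pass. FOS and ATF3 in REST gave r = 0.90 (exact permutation p = 0.0111, adjusted 0.167) and rho = 0.89 (exact permutation p = 0.0333, adjusted 0.200), which did not pass the adjustment, and r was 0.97 without the 2 farthest cows. FOS and JUN in REST gave r = 0.46 (exact permutation p = 0.396). Relations of FOS in CONT rest partly on background readings, in cows 5 and 6, and are not given. A slide holds 2 cows, too few for values within slides.

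Over all 12 arrays, where period, slide and cow all enter, the signal of FOS correlated with that of JUNB at r = 0.81, JUN at 0.69, ATF3 at 0.68, JUND at -0.14 and FOSB at -0.63. After the means of period and slide were removed, the values were 0.68 for JUNB, 0.65 for ATF3, 0.16 for JUN, 0.12 for JUND and -0.76 for FOSB. The genes most like FOS over the 12 arrays were BOC (r = 0.97), a cell surface receptor of the immunoglobulin family, TGIF1 (0.93), a homeobox repressor, HNRNPA1 (0.93), an RNA-binding protein, ADNCR (0.92), a non-coding RNA, and SLC25A20 (0.91), the mitochondrial carrier of acylcarnitines. After period and slide means were removed they were DDR1 (0.97), a collagen receptor, TNF (0.94), an inflammatory cytokine, SERGEF (0.94), LOC100847738 (0.93) and PTGER4 (0.92), a prostaglandin E2 receptor. These correlations are descriptions over arrays that share slides and cows and include the FOS background readings of cows 5 and 6 in CONT, ranked among 7930 genes. Removing slide means leaves the difference between the 2 cows of a slide. The FOS signal of cow 2 was the highest in both periods, at -1.42 and 2.23, and how far these values rest on that cow was not tested.

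Genes around AP-1 were described from 7 lists with 149 genes in all, of which 97 had a tested probe and 19 passed by the probe of highest mean signal, beside 16.2% of all tested genes, a share near that of the lists. The number that passed was 10 without cow 1, 6 without cow 2, 7 without cow 4 and 29 without slide 3. MAP3K1, IER2, KLF10, KLF4 and HSPA1A passed whichever cow was left out. The signal that reaches FOS and JUN runs through the MAP kinases to factors on their promoters. Of 22 tested genes of this upstream list, 2 rose, beside 6.95% of all genes, with a median change of -0.01, the same as over all genes. These are RNA levels, and the activity of the kinases was not measured. MRTFB, a coactivator of the serum response factor, rose by 0.61 (SE 0.14, limma adjusted p = 0.0376) and was higher in 6 of 6 cows. MAP3K1, a kinase that can lead to JUN, rose by 0.43 (SE 0.09, limma adjusted p = 0.0271), also in all 6. With normexp and the percentile shift, MRTFB was at 0.20 and did not pass, nor did it without cow 1, cow 2 or cow 4. The serum response factor SRF, ELK1, ELK3 and ELK4 had no tested probe.

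The feedback inhibitors are phosphatases, Sprouty proteins and mRNA-decay factors that shorten the signal or its transcripts. Of 11 tested, 2 rose, 0 fell and 9 did not pass, beside 6.95% higher and 9.27% lower over all genes, and the median change was 0.34, against -0.01 over all genes. The number that passed was 1 without cow 1 or cow 2, 0 without cow 4, 4 without cow 6 and 6 without slide 3. ZFP36L2 and ZFP36L1 bind AU-rich elements of short-lived transcripts and promote their decay. ZFP36L2 rose by 0.45 (SE 0.12, limma adjusted p = 0.0516) and ZFP36L1 by 0.44 (SE 0.10, limma adjusted p = 0.0343), in 6 of 6 cows both, and all 4 tested probes of ZFP36L1 passed. DUSP1, the nuclear phosphatase of the MAP kinases, had a change of 0.68 (SE 0.26, limma adjusted p = 0.138), positive in 5 cows, and of 1.09 without slide 3, which passed.

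Of the bZIP partners of AP-1 outside the 8 members, 1 of 14 tested rose, 1 fell and 12 did not pass, beside 16.2% of all genes that passed, with a median change of 0.07. None passed without cow 1 or without cow 2, and 1 passed without cow 3 or cow 4. DDIT3 (CHOP), a factor induced by stress of the endoplasmic reticulum and by lack of amino acids, rose by 0.95 (SE 0.23, limma adjusted p = 0.0408). It was higher in 5 cows and 0.33 lower in cow 6, the cow in which ATF3 was lower too, by a change of -1.08. CEBPB, a leucine zipper factor of mammary development and inflammation, fell by 0.32 on the log2 scale (SE 0.09, limma adjusted p = 0.0555) and was lower in 6 of 6 cows. In the list of amino acid stress genes around ATF3, DDIT3 and CEBPB were again the genes that passed, of 10 tested, beside 16.2% of all genes, with a median of 0.14. The number that passed in that list was 0 without cow 1 or cow 2, 1 without cow 3 or cow 4, and 5 without slide 3. In cow 6, which lay on the dim slide, every tested gene of that list was lower in REST, with changes from -0.21 to -3.46. ATF4, which acts upstream of both DDIT3 and ATF3 in the response to lack of amino acids, had a change of 0.12 (SE 0.17, limma adjusted p = 0.675). That is its RNA, and its protein was not measured.

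Of the other immediate early genes, 5 of 13 tested rose, 0 fell and 8 did not pass, beside 6.95% higher and 9.27% lower over all genes, with a median of 0.08, and 3 passed without cow 2. The list was added in earlier work after these samples had been seen, so that its direction is not independent evidence. EGR1, a zinc finger factor often induced beside FOS, rose by 0.83 (SE 0.24, limma adjusted p = 0.0658), yet in 4 of 6 cows, being about level in cow 3 and -0.19 in cow 6. KLF10, a repressor induced by TGF-beta, rose by 0.81 (SE 0.14, limma adjusted p = 0.0171), and NR4A2, an orphan nuclear receptor, by 0.72 (SE 0.16, limma adjusted p = 0.0355), both in 6 of 6 cows. IER2, a nuclear protein of the same early class, rose by 0.58 (SE 0.12, limma adjusted p = 0.0295), and KLF4, a zinc finger factor of epithelial differentiation, was the remaining gene that passed, with 0.57. EGR1 was well above background on 11 of 12 arrays, so that its value includes a background reading, and was at 0.40 with normexp and the percentile shift and did not pass there.

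Of the textbook targets of AP-1, 3 of 19 tested rose, 2 fell and 14 did not pass, beside 6.95% higher and 9.27% lower over all genes, with a median of 0.19. LGALS3, a galectin abundant in macrophages and epithelium, rose by 0.90 (SE 0.23, limma adjusted p = 0.0490) in 5 of 6 cows. MT2A, a metallothionein, rose by 0.88 (SE 0.28, limma adjusted p = 0.0881), with cows ranging from 0.02 to 1.95, and EZR, which ties the membrane to actin, by 0.37 (SE 0.09, limma adjusted p = 0.0448). CCND1, the cyclin that drives cells out of G1 and that JUN can activate, fell by 0.83 on the log2 scale (SE 0.23, limma adjusted p = 0.0594) in 5 of 6 cows, and SPP1, the secreted phosphoprotein osteopontin, fell by 0.36 on that scale. MT2A was well above background on 11 of 12 arrays, so that its value includes a background reading, and with normexp and the percentile shift it was at 0.33 and did not pass, and the number of targets that passed was 2 without cow 1, 0 without cow 2 or cow 4, and 3 without cow 3 or cow 6. Of the heat shock genes, 1 of 11 tested rose, 1 fell and 9 did not pass, beside 16.2% of all genes that passed, with a median of 0.06, and 1 passed without cow 2 or cow 4. HSPA1A, the inducible HSP70, rose by 0.53 (SE 0.11, limma adjusted p = 0.0263) on its first probe, with all 4 tested probes passing, and its co-chaperone BAG3 fell by 0.29 on the log2 scale (SE 0.07, limma adjusted p = 0.0452), while its second probe read 0.03.

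**Figure D4:**
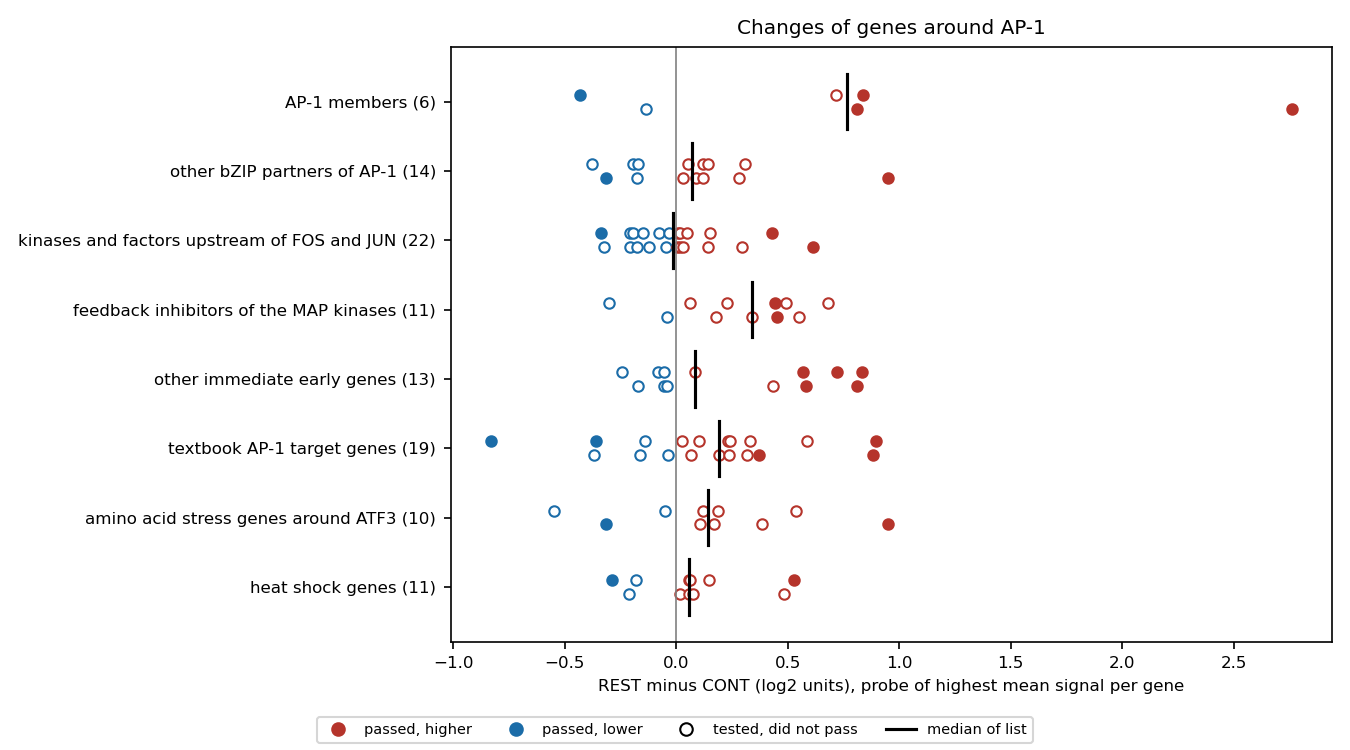
Change (log2 units, REST minus CONT) of each tested gene in the AP-1 group and the 7 lists around it, for the probe of highest mean signal of the gene, with the number of tested genes in brackets. Filled points passed the threshold in the fit across all probes (red higher, blue lower), open points did not, and black bars are medians. FOS lies apart at 2.76, while the other lists centre between -0.01 and 0.34.

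Of 38 tested markers of the cell types a biopsy can hold, 8 passed by the probe of highest mean signal, beside 16.2% of all tested genes. Among luminal markers KRT8 (0.72, limma adjusted p = 0.0089) and KRT18 (0.52, adjusted p = 0.0680) rose, although 1 of 3 tested KRT8 probes read -0.14, and CSN3 fell by 0.28 on the log2 scale (adjusted p = 0.0776), or by 0.07 with quantile normalization. Their summed linear level, in multiples of the array's 75th percentile, was 2047 to 2755 in CONT and 1695 to 2256 in REST, lower in all 6 cows. The probes of CSN3 and LALBA carry most of that sum, and the median change of the 7 markers was 0.12. Of 7 myoepithelial markers, CNN1 and ACTA2 fell by 0.53 and 0.38 on the log2 scale, and 1 of 2 tested CNN1 probes passed. The mean change was positive in 4 of these 7 markers, with a median of 0.04. Their sum was 118 to 220.0 in CONT and 108 to 207 in REST, higher in 1 cow. Of 6 endothelial markers, VWF rose by 0.54, and by 0.51 to 0.61 over its 4 tested probes, all of which passed, and the sum was 22.7 to 30.7 in CONT and 27.0 to 40.9 in REST, higher in 5 cows. Of 7 leukocyte markers, CD3E rose by 0.35, while CD2 (-0.17) and PTPRC (-0.15) did not pass and were lower in 5 of 6 cows both. The mean change was positive in 4 of these 7 markers, with a median of 0.17. Their sums were 8.62 to 11.2 in CONT and 9.33 to 12.3 in REST, higher in 3 cows, and ITGAM was not well above background on any array. None of 7 fibroblast markers passed in the limma fit by the probe of highest mean signal, although 1 of 3 tested COL1A1 probes did, and their sum was 35.0 to 64.6 in CONT and 27.6 to 75.2 in REST. Of the neutrophil, erythrocyte and adipocyte markers, 1, 1 and 0 were tested and none passed, and of 2 skeletal muscle markers CKM fell by 0.36 on the log2 scale. The part of these shifts in the values of the AP-1 factors was not tested.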

How the data were processed

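Per the file headers and the submitters' processing notes, the authors extracted spots with Agilent Feature Extraction (version 11). The deposited scanner files hold background-subtracted, detrended intensities on a linear scale, not yet scaled between arrays. The deposited series table held the same intensities in all 45220 cells of each array. The methods name a 75th percentile shift, which was computed here.

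The processed intensity was log2-transformed, repeat spots were averaged and each array's 75th percentile of non-control spots was subtracted, after 1 to 13 flagged spots per array were left out. No spot was saturated. Probes were named through their RefSeq transcript in a reference gene table, which gave 27131 of 43653 probes (62.2%) a symbol. The arrays' annotation refers to an older assembly than that table, so positions are not given, and probe sequences were not analysed here.

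A probe was tested when well above background on every array of at least 1 period. limma 3.58.1 (R 4.3.3) was fitted with period and cow, two-sided, with Benjamini-Hochberg adjustment over all tested probes and a threshold of 0.1. The test was tested on simulated data first. Summaries and plots used Python 3.11.15, pandas 2.3.3, numpy 2.4.6 and matplotlib 3.10.9. Cow was a block because the labels name the animal of each sample. Deviations from period means correlated at 0.36 to 0.57 between both samples of a cow and at -0.33 to 0.13 between cows.

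Members and lists were chosen with earlier results of these data known. The text names all members, at most 4 passing genes of each pathway list by size of change, the 5 genes most like FOS by either measure, and cell type markers that passed. DUSP1, ATF4, KLF4, SPP1, LALBA, COL1A1, CD2, PTPRC, ITGAM and the untested upstream genes were named after their values were seen. Normexp used the median signal, since the files hold no mean signal, and it and the fit without slide 3 were chosen after seeing the data. Exact permutation tests were used for correlations. Precision is limited by the number of arrays. Part of the upstream list is not reported here.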

Additional observations from a re-analysis of the deposited data

Results flagged for a closer look

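Among the 20 sets of 6 values examined, those of each tested member probe in each period, 1 held a sample far from the others. The first FOS probe in REST read 2.23 in cow 2, against 0.41 in the nearest cow and -0.61 at the other end, a gap of 0.64 of the whole range, past Dixon's 95% limit for 6 samples. Chance passes that limit in about 1 set in 20. Cow 2 was also highest in CONT, at -1.42.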

How the results depend on the processing

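No change of a member that had passed reversed its sign. The counts of passing probes, genes, AP-1 members and genes of the 7 lists were 3105, 1630, 4 and 19 as reported. Without the filter on dim probes they were 388, 216, 1 and 2. With no replicate block they were 837, 451, 1 and 4, and with slide as the block in place of cow 1899 probes, 992 genes and 2 members passed. The methods name t-tests and do not say whether they were paired. An ordinary t-test, computed here likewise without pairing by cow, gave 723, 428, 1 and 2. The member that passed in each of these counts of 1 was FOS, and with slide as the block FOS and JUNB passed. Leaving out 1 cow at a time gave 1044 to 3292 probes, 571 to 1749 genes, 3 to 5 members and 6 to 19 list genes, lowest for probes, genes and list genes without cow 2. Without cow 1 the probes numbered 1531, and without cow 4 they numbered 1192. Without slide 3, 29 list genes passed. The other alternatives kept each of these counts within 1.5 times. The lower share of passing probes was 54.8% as reported and 46.0% with normexp and the percentile shift.

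Depth of signal limits the members most at FOS, FOSL1 and FOSL2. The first FOS probe is not in the set of probes well above background on all 12 arrays, and its fold depends on how background is handled. With 2 cows to a slide, cow and slide cannot be separated for JUN and ATF3. Why these values moved was not tested.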
